A study of Rattus norvegicus with 43 samples.

Results

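Aminoacyl-tRNA synthetases were followed in the foreskin of rat pups after exposure to dibutyl phthalate (DBP) in the womb. The members were all array probes whose gene symbol followed the naming of the cytosolic and mitochondrial synthetases (a letter for the amino acid, then ars, mostly with a final 1 or 2) or was that of a scaffold partner of the synthetase complex, which gave 31 probes for 30 genes out of 22523 probes and 13337 distinct symbols. They comprised 17 cytosolic enzyme genes with 18 probes, 11 mitochondrial enzyme genes with 11 probes, and the scaffold partners Aimp1 and Eef1e1. Every member symbol matched the rat RefSeq gene table. Synthetase genes named otherwise, such as Tars3, were not counted as members.

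The study used Illumina RatRef-12 beadchips. Per the labels, pregnant Sprague Dawley dams were gavaged daily with corn oil or with DBP at 100 or 500 mg/kg/day on gestational days 16 to 20, and foreskin was taken on gestational day 20 (GD20) or postnatal day 5 (PND5). At GD20 the titles describe 2 separate studies. The first held 5 litters exposed to 500 mg/kg/day (GD20 DBP500) and 6 corn oil litters. The second held 5 litters exposed to 100 mg/kg/day (GD20 DBP100) and 6 corn oil litters of its own. At PND5 a single set of corn oil controls, DBP100 and DBP500 held 7 arrays each. Each array was labelled a biological replicate and carried RNA pooled from 2 foreskins of a litter, so it averaged whole tissue. In such bulk samples fewer cells of a type and less RNA per cell cannot be told apart.

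Aminoacyl-tRNA synthetases join each amino acid to its transfer RNA, which supplies the ribosome. Cytosolic and mitochondrial protein synthesis mostly use separate enzymes made from separate nuclear genes, named with a final 1 and a final 2, although Gars1 and Kars1 each serve both compartments. Several cytosolic enzymes sit in a multisynthetase complex held together by scaffold proteins that include Aimp1 and Eef1e1. When amino acids run short or the integrated stress response is active, the transcription factor ATF4 induces many cytosolic synthetase genes together with amino acid transport and synthesis genes, as shown in mouse and human cells. Which synthetases belong to that group was taken from this background knowledge.

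The arrays detected between 44.5% and 53.6% of their probes each, and no pair of the 43 arrays held identical values. Testing required detection (p under 0.05) on 5 or more arrays, which kept 28 member probes for 27 genes: 16 cytosolic, 9 mitochondrial and both scaffold genes. Hars1 and Pars2 were detected on 0 arrays and Fars2 on 1, so they were not tested. Lars2 was detected on 10 arrays, Aars2 on 18, Sars2 on 34 and the dimmer of the 2 Tars1 probes, called probe b, on 39. The remaining 24 tested probes were detected on all 43 arrays. Basal epidermis markers averaged 12.8 to 13.6 and fibroblast markers 13.9 to 14.5 on the log2 scale over all arrays, as the tissue label has it, while the liver markers, 2 of 3 listed genes on the array, averaged 4.63 to 6.81.

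At GD20, DBP at 500 mg/kg/day was accompanied by higher cytosolic synthetase signals. Lars1, the leucine enzyme of the multisynthetase complex, and Cars1, the cysteine enzyme, rose 1.48-fold and 1.52-fold. These were 2 of the 28 member probes (7.14%), at an adjusted p under 0.05 in limma over all tested probes. Over all 13577 tested probes, 41 (0.302%) passed in either direction and 24 (0.177%) passed as higher. No member passed as lower, and 8 member probes had an unadjusted p under 0.05, all of them higher, against 3.82% of all probes higher and 7.39% in either direction.

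The Lars1 signal was 10.91, 10.85, 11.17, 11.04 and 10.92 in the 5 GD20 DBP500 litters (log2 normalized signal), against 10.39, 10.54, 10.34, 10.27, 10.46 and 10.50 in the 6 controls of that study. Every exposed litter lay above every control. The difference was 0.56 ± 0.10 log2 (SE), with an adjusted p of 0.00408 in limma, and Lars1 passed in each of the 11 fits that left out 1 of these arrays.

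The Cars1 signal was 8.74, 8.84, 9.09, 8.95 and 8.95 in the exposed litters, against 8.23, 8.47, 8.28, 8.14, 8.38 and 8.36 in the controls. The groups again did not overlap. The difference was 0.60 ± 0.13 log2 with an adjusted p of 0.0235 in limma. That call was less stable than the one for Lars1, since it held in 6 of the 11 fits with 1 array left out. Its adjusted p was 0.0605 without control 1, 0.0892 without control 4, 0.107 without DBP500 litter 3, 0.0747 without litter 4 and 0.0599 without litter 5. With each array shifted to a common median in place of quantile normalization neither gene passed: Lars1 differed by 0.61 (adjusted p = 0.419) and Cars1 by 0.72 (adjusted p = 0.125) in limma, and 18 of all probes passed.

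Yars1, Tars1 and Aars1, the tyrosine, threonine and alanine enzymes, did not pass but also showed no overlap between exposed and control litters, so that 5 member probes did so against 0.987% of all probes. They are named here after their values were seen. Yars1 gave 9.78 to 10.32 in exposed litters, median 10.07, against 9.29 to 9.66 in controls, median 9.54 (difference 0.53 ± 0.14, adjusted p = 0.087 in limma). The brighter Tars1 probe, probe a, gave 9.68 to 9.91 in exposed litters against 9.23 to 9.62 in controls (0.38 ± 0.10, adjusted p = 0.114 in limma). Probe b of Tars1 differed by 0.35 ± 0.20, with an adjusted p of 0.775. Aars1 gave 10.50 to 10.95 in exposed litters against 10.29 to 10.47 in controls (0.33 ± 0.11, adjusted p = 0.324 in limma). In the authors' processed values, Tars1 probe a and Yars1 passed as well, which made 4 members.

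**Figure D1:**
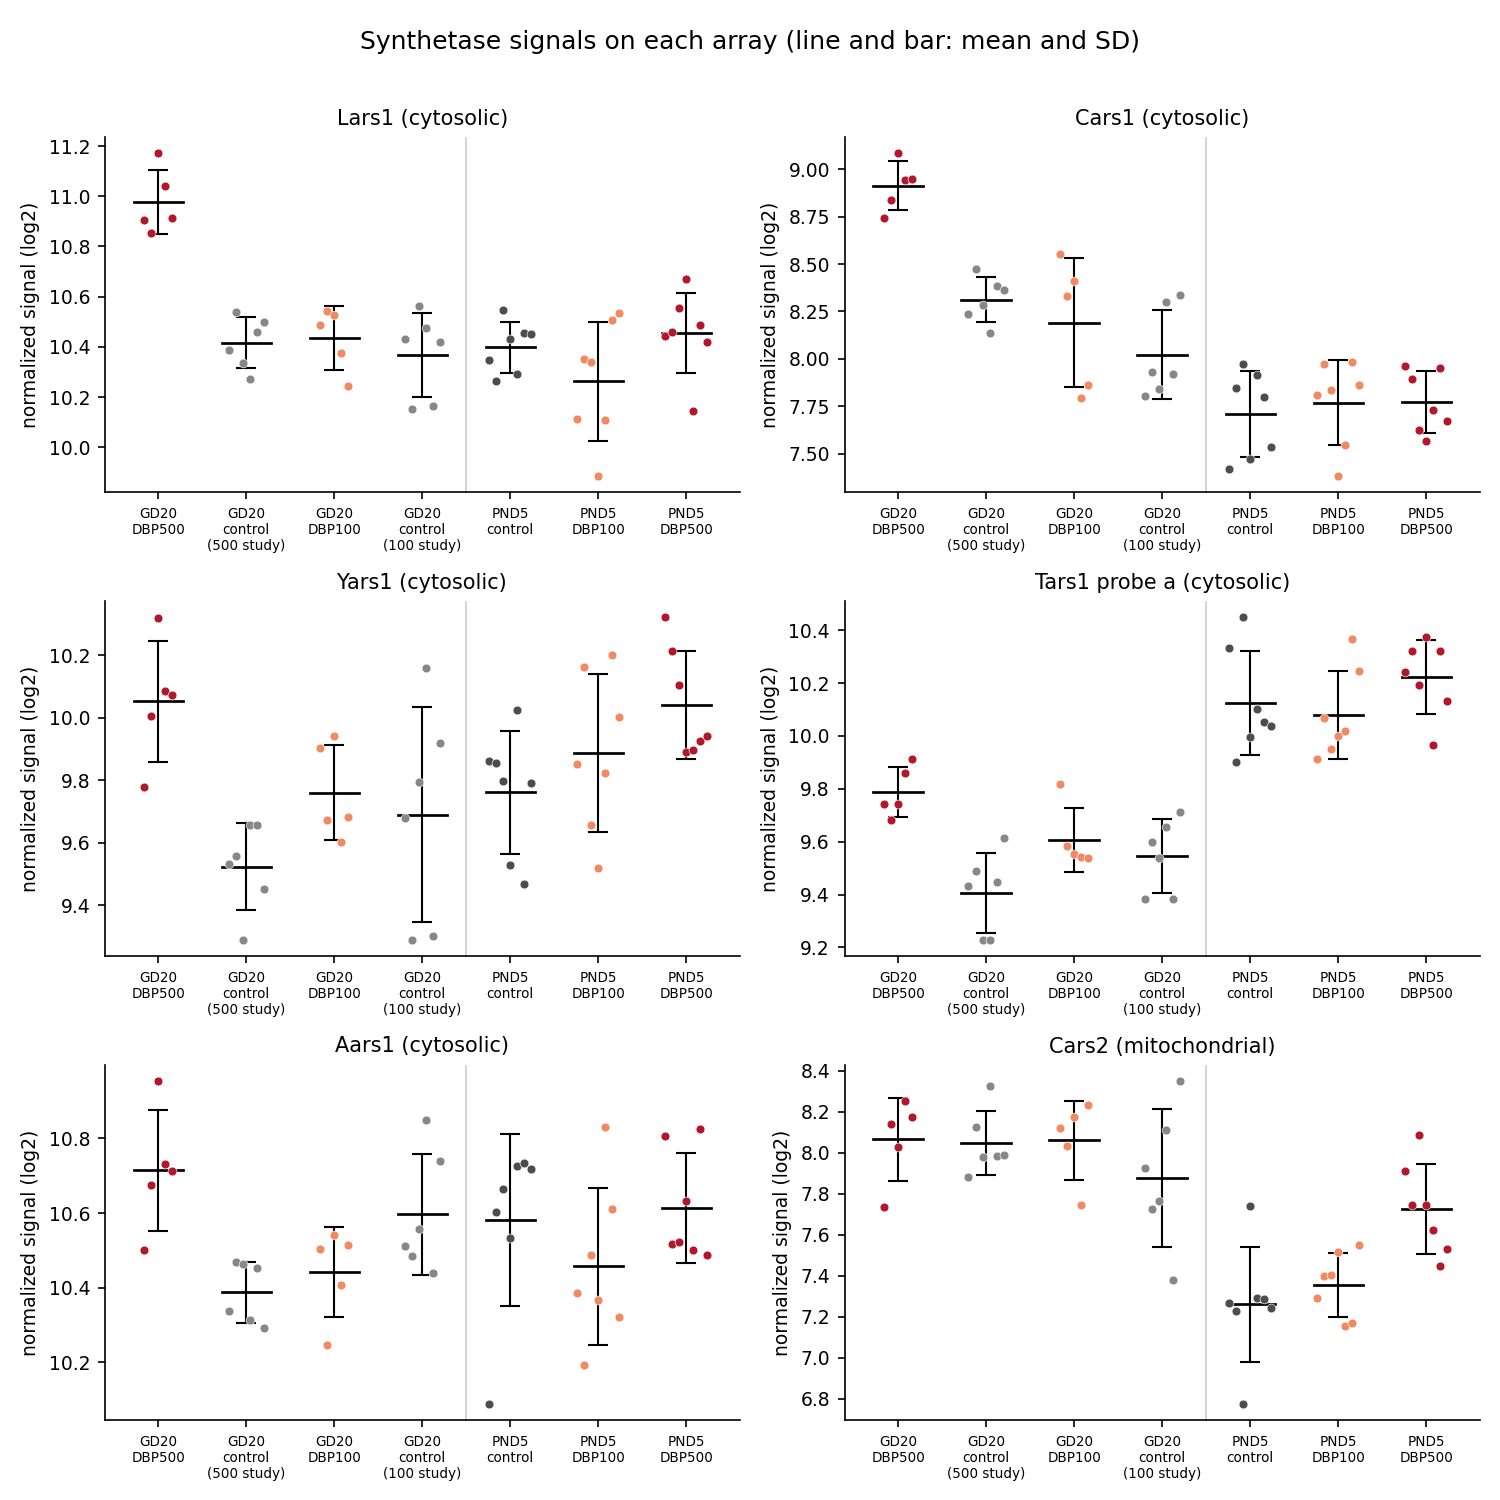
Normalized log2 signal (vertical axis) of 6 synthetase probes on each of the 43 arrays, with points for litters and black lines and bars for group mean and SD; the GD20 groups stand left of the vertical line. The 5 cytosolic probes are the members with no overlap between GD20 DBP500 and its own controls, so their separation follows from this choice. Of them only Lars1 and Cars1 passed. Cars2, the mitochondrial cysteine enzyme, runs higher in PND5 DBP500 than in PND5 controls.

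None of the other cytosolic enzymes passed, and in each the exposed and control litters overlapped. Gars1, the glycine enzyme, and Nars1, the asparagine enzyme, differed by 0.28 ± 0.11 and 0.23 ± 0.09 (adjusted p = 0.528 and 0.5 in limma). Eprs1, the fused enzyme for glutamate and proline, differed by 0.36 ± 0.29 and had the largest error of all members. Kars1, Qars1 and Iars1, the lysine, glutamine and isoleucine enzymes of the multisynthetase complex, lay between 0.01 and 0.05. Wars1, the tryptophan enzyme, and Farsb, a subunit of the phenylalanine enzyme, gave -0.14 ± 0.15 and -0.10 ± 0.10. Within the complex, Lars1 was thus the only one of 6 measured enzyme genes to pass, although all 6 had a difference above 0.

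Taken by class, 13 of 16 cytosolic genes were higher in GD20 DBP500, with a median difference of 0.20 log2, against 50.4% of all tested probes and an all-probe median of 0.00. Of the 11 cytosolic genes known as ATF4 targets, 10 were higher, 2 passed and the median was 0.33. Of the 5 other cytosolic genes, 3 were higher, 0 passed and the median was 0.01. Both scaffold genes were higher and neither passed (Eef1e1 0.26 ± 0.12, adjusted p = 0.59 in limma, and Aimp1 0.08 ± 0.15). The count of higher cytosolic probes was 13 to 15 of 17 under the 5 scalings tried.

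The 9 mitochondrial genes showed no such shift. Of these, 6 were higher, 3 were lower, 0 passed and 0 had an unadjusted p under 0.05 in limma, with a median of 0.02. Vars2, the mitochondrial valine enzyme, gave the largest difference, 0.25 ± 0.14 (adjusted p = 0.733 in limma), and Rars2, the arginine enzyme, the lowest, -0.15 ± 0.17. For 9 amino acids an enzyme of each compartment was tested, and the cytosolic one had the larger difference in 7. Valine ran the other way (Vars1 -0.01, Vars2 0.25), as did serine by a small margin (Sars1 0.06, Sars2 0.07). The 7 include alanine, where Aars2 (-0.02) was detected on 1 of 5 exposed arrays and 0 of 6 controls. Its signals were thus near background. The 3 pairs with the largest cytosolic difference are given in full. For cysteine, Cars1 differed by 0.60 while Cars2 differed by 0.02 ± 0.14, with a 95% interval of -0.27 to 0.30. For leucine, Lars1 differed by 0.56 while Lars2 differed by 0.06 ± 0.18, with an interval of -0.29 to 0.42 and detection on 3 of the 5 exposed arrays and 4 of the 6 controls. For tyrosine, Yars1 differed by 0.53 while Yars2 differed by -0.10 ± 0.17, with an interval of -0.44 to 0.24. The difference between paired genes was not tested.

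**Figure D2:**
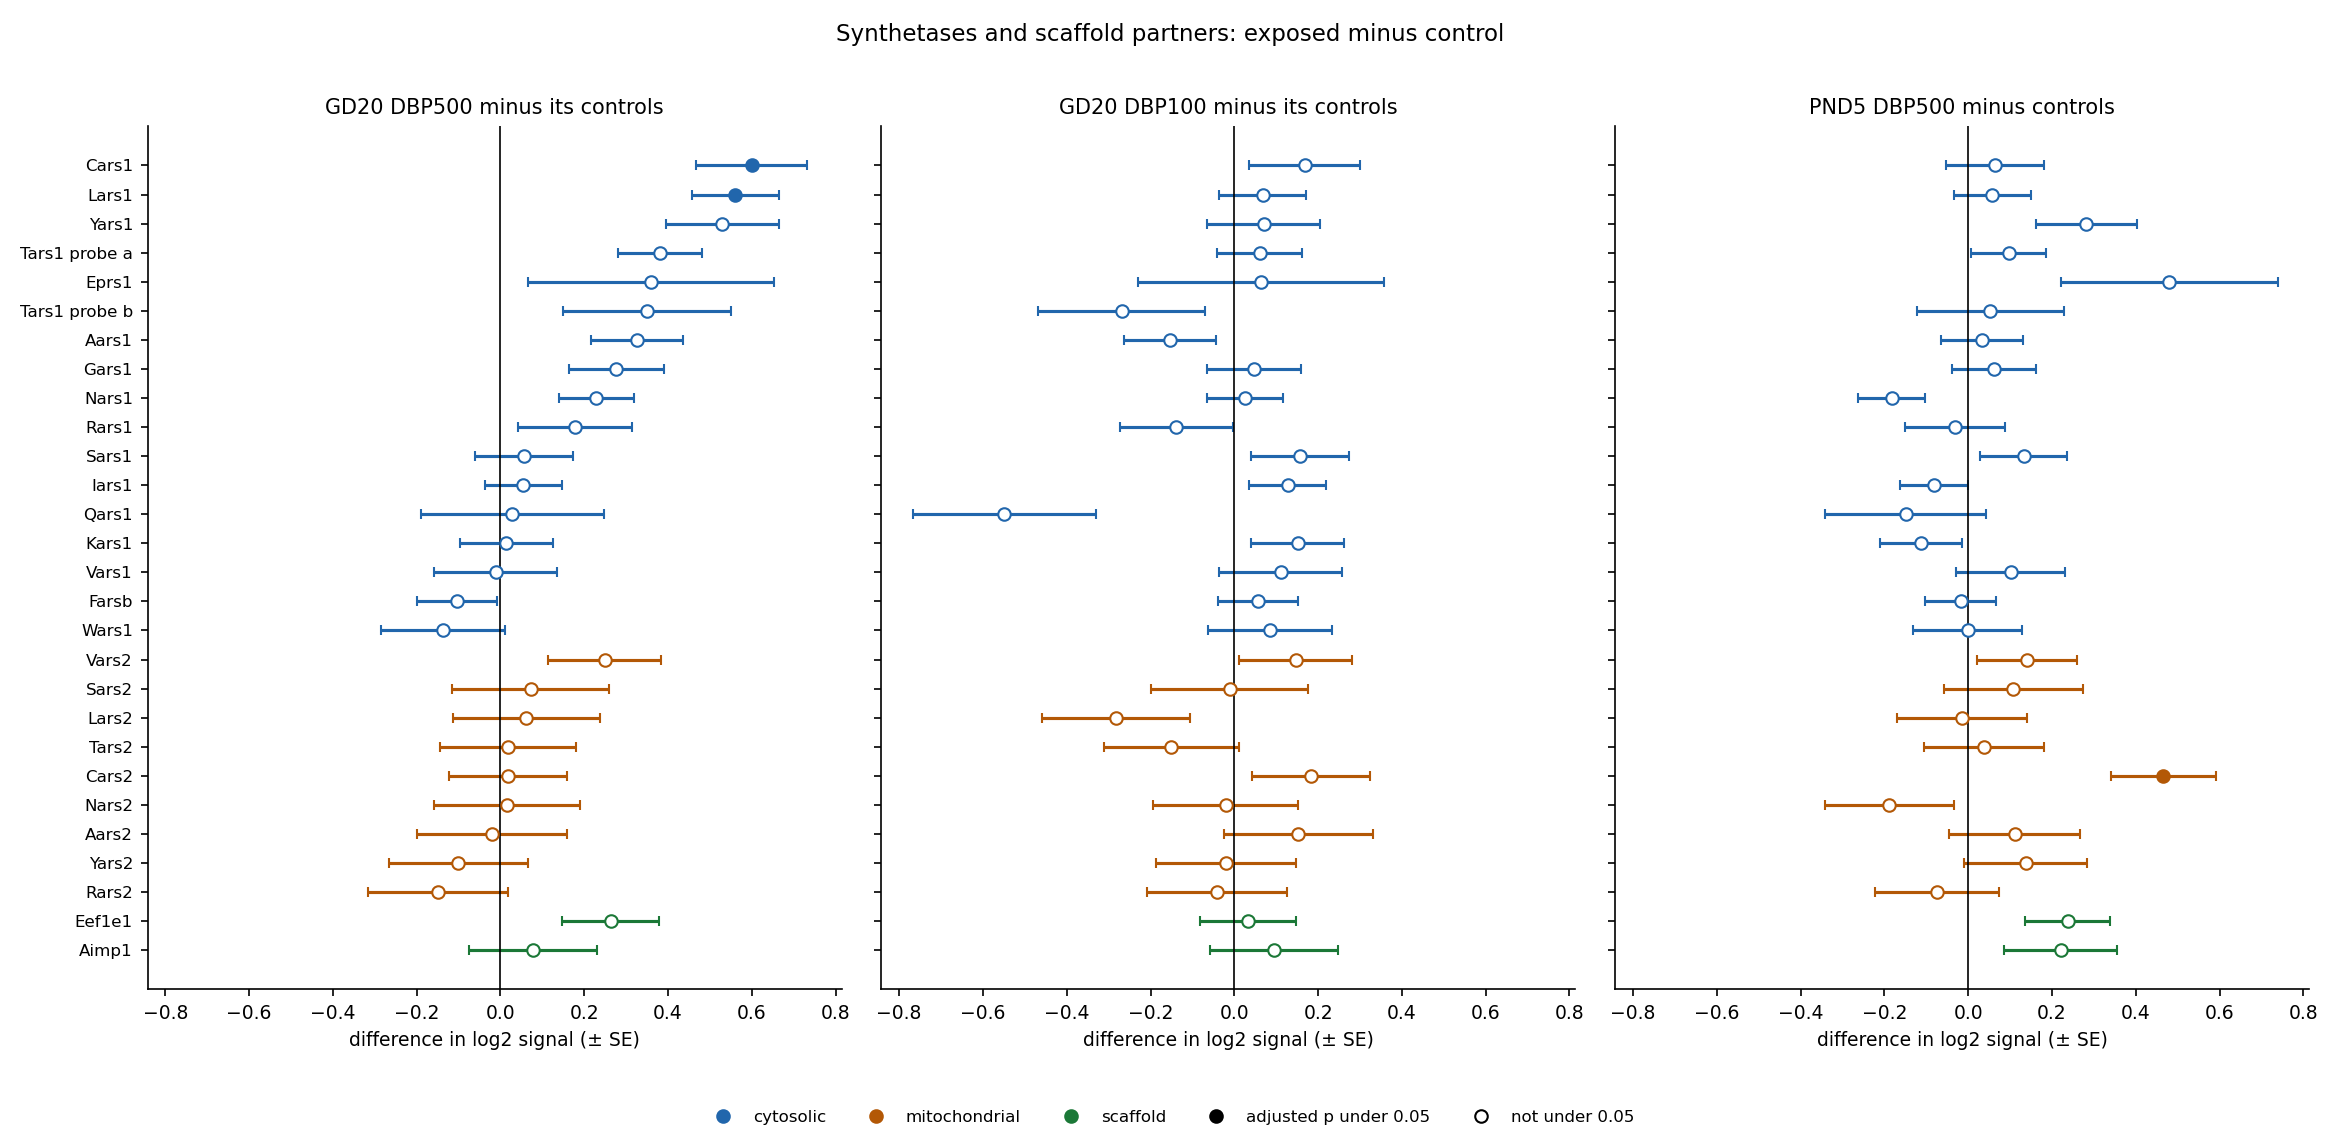
Difference in log2 signal with its SE (horizontal axis) of the 28 tested member probes, ordered by class and by their GD20 DBP500 value, in GD20 DBP500, GD20 DBP100 and PND5 DBP500, each against its own controls. Filled points have an adjusted p under 0.05: Cars1 and Lars1 in the left panel, none in the middle and Cars2 in the right panel.

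Promoter sequence was set beside these values because the genes that moved at GD20 are listed as ATF4 targets, and ATF4 binds a composite site called CARE, searched here as TGATGNAA on both strands in windows of 250 bases before to 50 after each gene start. RefSeq promoter windows (build GRCr8) matched 28 of the 30 member genes, all but Gars1 and Rars1. The window of Lars1, the member of smallest p, held no match to these letters. The window of Cars1 held 1 match, which is given in capitals.
Lars1, chr18:34506849-34507148, minus strand: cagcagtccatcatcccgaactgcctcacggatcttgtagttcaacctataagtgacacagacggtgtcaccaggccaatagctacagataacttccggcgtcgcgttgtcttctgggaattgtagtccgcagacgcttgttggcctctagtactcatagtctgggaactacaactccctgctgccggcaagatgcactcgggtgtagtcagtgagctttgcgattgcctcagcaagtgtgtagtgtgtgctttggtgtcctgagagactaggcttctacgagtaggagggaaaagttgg
Cars1, chr1:208225320-208225619, minus strand: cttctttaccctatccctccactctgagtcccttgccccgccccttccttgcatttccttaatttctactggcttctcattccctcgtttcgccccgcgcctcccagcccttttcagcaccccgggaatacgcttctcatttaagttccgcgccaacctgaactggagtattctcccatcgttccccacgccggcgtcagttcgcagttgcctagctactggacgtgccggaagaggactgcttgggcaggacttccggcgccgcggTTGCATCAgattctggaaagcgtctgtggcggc
In Cars1 the match covers bases 18 to 25 after the start, on the opposite strand.

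The motif was found in 6 of 15 cytosolic windows (40%), in 0 of 11 mitochondrial windows, in 0 of 2 scaffold windows and in 3.98% of all 33469 promoter windows. All 6 were on the ATF4-target list, of which 10 had a window. Besides Cars1 they were Aars1, Iars1, Nars1, Tars1 and Yars1, and the 30-base stretches around the matches of Iars1, Nars1, Tars1 and Yars1 follow, with the match in capitals.
Iars1, chr17:15193658-15193687, minus strand: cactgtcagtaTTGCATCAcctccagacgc
Nars1, chr18:60275778-60275807, minus strand: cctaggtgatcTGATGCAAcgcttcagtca
Tars1, chr2:62114811-62114840, minus strand: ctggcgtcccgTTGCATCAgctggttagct
Yars1, chr5:146820183-146820212, plus strand: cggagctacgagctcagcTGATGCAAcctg
Of these 6 genes, Cars1 passed at GD20 DBP500. Aars1, Yars1 and Tars1 in probe a, but not probe b, had exposed litters all above the controls. Nars1 differed by 0.23 and Iars1 by 0.05 ± 0.09, and in both the groups overlapped. A second motif, labelled NRF1, was searched in the same windows. It was found in 3 of 15 cytosolic windows (20%), 1 of 11 mitochondrial windows (9.09%) and 0 of 2 scaffold windows. Over all promoter windows its share was 4.25%. Its cytosolic genes were Farsb, Sars1 and Tars1. A cytosolic share above that of all windows was thus not particular to CARE. The difference between the motifs was not tested. A match describes letters only, and nothing about binding follows from it. The matches come from sequence alone and ATF4 binds CARE, so their place on the ATF4-target list tells nothing about the GD20 differences.

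Other genes of the amino acid response moved in the same comparison. Of 23 tested genes, 22 were higher and 4 passed, with a median of 0.25. The 4 were Asns, which makes asparagine, Nupr1, a stress-response gene, Psph, the last enzyme of serine synthesis, and Atf5, a relative of ATF4. Asns gave 7.64, 7.79, 7.97, 8.21 and 8.23 in exposed litters against 6.03 to 6.98 in controls, median 6.49 (difference 1.45 ± 0.18, adjusted p = 9.18e-06 in limma). Nupr1 was 2.82-fold higher, Psph differed by 0.65 ± 0.13 and Atf5 by 0.71 ± 0.17 (adjusted p = 1.16e-05, 0.00821 and 0.0385 in limma). Atf4 itself differed by 0.33 ± 0.13 (adjusted p = 0.51 in limma). Of 13 cytosolic translation factors 9 were higher (median 0.02), as were 6 of 8 mitochondrial translation genes (median 0.10) and 4 of 5 tRNA-linked genes (median 0.17). In each of these lists 0 passed in limma and 1 had an unadjusted p under 0.05, and the difference between lists was not tested.

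Of the markers of other cell types, 1 passed in the same comparison. All 5 skeletal muscle markers were lower in GD20 DBP500 and none passed (median -1.06 log2). Their mean level was 5.70 to 7.42 in exposed litters and 5.85 to 8.69 in controls. All 3 smooth muscle markers were lower, and 1 of them, Tagln, passed. The mean level over the 3 markers was 7.66 to 7.88 in exposed litters against 8.23 to 8.39 in controls. Leukocyte markers were lower in 4 of 5 genes, and the 4 differentiated epidermis markers were higher with a median of 0.20, with 0 passing in either list. Their part in the synthetase result was not tested.

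At GD20, DBP at 100 mg/kg/day gave no synthetase call. In limma 0 of 28 member probes passed, against 80 of all probes (0.589%), a count that ran from 0 without DBP100 litter 2 to 464 without DBP100 litter 4. In this comparison 1 member had an unadjusted p under 0.05, against 11.4% of all probes. That member was Qars1, whose signal was 7.31, 7.61, 8.06, 8.59 and 8.49 in DBP100 litters against 8.32 to 8.94 in their controls, median 8.55. Of the 5 exposed litters, 3 lay below all controls and the other two among them (difference -0.55 ± 0.22, adjusted p = 0.279 in limma). The next smallest p belonged to Lars2, with 5.16, 4.96, 4.90, 5.43 and 5.15 in DBP100 litters against 5.19 to 5.71 in controls, median 5.36. Detection of Lars2 there was limited to 0 of 5 DBP100 arrays and 2 of 6 controls, so its difference of -0.28 ± 0.18 (adjusted p = 0.599 in limma) compares signals close to background.

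The enzymes that rose at the higher dose lay near their controls at the lower one. Lars1 averaged 10.44 ± 0.13 (SD, n = 5) in GD20 DBP100 litters and 10.37 ± 0.17 (SD, n = 6) in controls, a difference of 0.07 ± 0.10 with a 95% interval of -0.14 to 0.28. Cars1 averaged 8.19 ± 0.34 in GD20 DBP100 litters and 8.02 ± 0.23 in controls, a difference of 0.17 ± 0.13 with an interval of -0.10 to 0.43. Over the cytosolic genes, 13 of 16 were again above 0, as were 55.1% of all probes, but with a median of 0.07, and over the mitochondrial genes 3 of 9 were, with a median of -0.02. All tested probes had a median of 0.02.

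The dose effects at GD20 were compared as a difference of differences, each dose against its own controls. No member passed, against 18 of all probes (0.133%), and 6 member probes had an unadjusted p under 0.05 (10.7% of all probes did), all with the larger difference at 500 mg/kg/day. Lars1 had the smallest p, with 0.49 ± 0.15 (adjusted p = 0.179 in limma), followed by Aars1 with 0.48 ± 0.16 (adjusted p = 0.214). Cars1 gave 0.43 ± 0.19 and Yars1 0.46 ± 0.19 (adjusted p = 0.386 and 0.369 in limma). A difference between the doses was thus not established for any synthetase. Asns (1.18 ± 0.26) and Nupr1 (1.43 ± 0.28) passed (adjusted p = 0.044 and 0.0401 in limma), but 0 of all probes did with the median shift, with the replicate block, with no detection filter and in 8 of 22 fits that left out 1 array. Both also differed between the control groups of the GD20 studies, by 0.58 for Asns and -0.71 for Nupr1 (DBP500 study minus DBP100 study, adjusted p = 0.0133 and 0.00488 in limma).

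The controls of the GD20 studies differed from each other, which bears on this dose comparison. Between the controls of the DBP500 study and those of the DBP100 study, 5 of 28 member probes passed (17.9%), against 2991 of all probes (22%). Qars1 was lower in the controls of the DBP500 study, with 6.32 to 8.27, median 7.73, against 8.32 to 8.94, median 8.55 (difference -0.96 ± 0.21, adjusted p = 0.000913 in limma). Tars1 probe b was also lower there (-0.82 ± 0.19, adjusted p = 0.0018), with detection on 3 of 6 controls of the DBP500 study and 6 of 6 of the DBP100 study, so its size compares signals near background, whereas probe a of the same gene differed by -0.14 ± 0.10 (adjusted p = 0.315). Nars1, Kars1 and Farsb were higher there by 0.34, 0.35 and 0.25 (adjusted p = 0.0034, 0.0138 and 0.0466 in limma). The authors' processed values were normalized separately within each study, so they cannot check a difference between these control groups. There 17 of 28 member probes passed, but not Kars1 and Farsb, with differences of 0.19 and 0.03 (adjusted p = 0.0578 and 0.755 in limma). Farsb held in 2 of 12 fits that left out 1 control, with adjusted p-values of 0.044 to 0.0886, and Kars1 was lost without control 6 of the DBP500 study (adjusted p = 0.0555).

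After birth, prenatal DBP at 500 mg/kg/day was accompanied by 1 synthetase call, for Cars2, the mitochondrial cysteine enzyme, which rose 1.38-fold. It was 1 of 28 member probes (3.57%), against 498 of all probes (3.67%) in either direction and 202 (1.49%) as higher. The count of 498 ran from 190 without DBP500 litter 3 to 733 without DBP500 litter 7, and with all arrays kept the share of members called in either direction was no higher than that of all probes. Cars2 gave 6.77 to 7.74, median 7.27, in PND5 controls, 7.15 to 7.55, median 7.40, in PND5 DBP100 litters and 7.45 to 8.09, median 7.74, in PND5 DBP500 litters. In the DBP500 group 4 of 7 litters lay above every control and 7 of 7 above the control median. The DBP500 difference from controls was 0.47 ± 0.12 (adjusted p = 0.0282 in limma).

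The Cars2 call rested on few arrays. Its adjusted p in limma was 0.0748 without control 3, 0.0565 without DBP500 litter 1, 0.0541 without litter 2 and 0.0861 without litter 3, and it held in 10 of 14 such fits. With all arrays kept, it was also lost with the median shift (difference 0.42, adjusted p = 0.166), in the authors' processed values (0.28, adjusted p = 0.0569), in a fit of only the 2 groups compared (0.47, adjusted p = 0.097) and with the replicate number as a block (0.47, adjusted p = 0.0517). The PND5 arrays fall into 2 sets by their highest raw signal, replicates 1 to 4 with 15335 to 17753 and replicates 5 to 7 with 20110 to 29459. The Cars2 difference was 0.62 within the first set and 0.26 within the second. At GD20 the same gene differed by 0.02 at this dose, and the difference between the ages was 0.45 ± 0.19 (adjusted p = 0.28 in limma).

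At PND5 the cytosolic enzymes showed no common shift with 500 mg/kg/day. Of 16 genes 9 were higher, 0 passed and the median was 0.04, and 6 of 9 mitochondrial genes were higher with a median of 0.11. Of all probes 53.7% were higher, with a median of 0.02. Lars1 averaged 10.46 ± 0.16 in DBP500 litters and 10.40 ± 0.10 in controls (SD, n = 7 each), a difference of 0.06 ± 0.09 with a 95% interval of -0.13 to 0.24. Cars1 differed by 0.06 ± 0.12, with an interval of -0.17 to 0.30. Yars1, Eef1e1 and Nars1 were the other members with an unadjusted p under 0.05, as 18.3% of all probes had, with differences of 0.28, 0.24 and -0.18 (adjusted p = 0.186, 0.188 and 0.198 in limma). In the amino acid response list, 19 of 23 genes were higher and 2 passed, Herpud1 (0.45 ± 0.11), an endoplasmic reticulum stress gene, and Slc7a5 (0.53 ± 0.15), a transporter of large neutral amino acids (adjusted p = 0.0173 and 0.0429 in limma). All 5 leukocyte markers were higher in DBP500 litters with 0 passing and a median of 0.23, with a mean level of 8.28 to 8.57 in DBP500 litters against 8.10 to 8.35 in controls. Of the other lists, 1 of 4 differentiated epidermis markers passed as lower (Casp14) and 1 of 4 erythroid markers as higher (Hbb). Their part in these values was not tested. The leukocyte and amino acid response lists also ran higher in DBP100 litters, against the same controls. There all 5 leukocyte markers were higher, with a median of 0.17. Of the amino acid response genes, 17 of 23 were higher there, with a median of 0.10. In DBP100 litters 0 passed in either list.

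At PND5 with 100 mg/kg/day, 0 of 28 member probes passed, against 11 of all probes (0.081%), and 2 members had an unadjusted p under 0.05 in limma, both lower, against 10.4% of all probes. Iars1 gave 8.56 to 9.03, median 8.80, in DBP100 litters against 8.70 to 9.30, median 8.99, in controls (difference -0.20 ± 0.08, adjusted p = 0.352 in limma). Nars1 gave 11.35 to 11.69, median 11.50, in DBP100 litters against 11.57 to 11.80, median 11.73, in controls (-0.18 ± 0.08, adjusted p = 0.395 in limma). The groups overlapped in both genes. Between the doses at PND5, DBP500 against DBP100, 0 members passed, against 7 of all probes (0.0516%), and 3 had an unadjusted p under 0.05 in limma, all higher, against 9.03% of all probes. Cars2 was higher by 0.37 ± 0.12 and Aimp1 by 0.31 ± 0.14 in DBP500 litters (adjusted p = 0.308 and 0.481 in limma). Aimp1 gave 10.99 to 11.76, median 11.23, in DBP500 litters against 10.60 to 11.35, median 11.19, in DBP100 litters. These comparisons share their PND5 samples.

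The effects of each dose were also compared between ages. For 500 mg/kg/day, PND5 minus GD20, 0 members passed against 56 of all probes (0.412%), and 5 had an unadjusted p under 0.05, against 12.8% of all probes. Lars1 gave -0.50 ± 0.14 (adjusted p = 0.081 in limma), Nars1 -0.41 ± 0.12 (adjusted p = 0.108) and Cars1 -0.54 ± 0.18 (adjusted p = 0.149). The Lars1 difference passed with no background correction (adjusted p = 0.0465) and in the authors' processed values (adjusted p = 0.0283). For 100 mg/kg/day, 0 members and 0 of all probes (0%) passed in limma. The members of smallest p there were Iars1 with -0.33 ± 0.12 and Kars1 with -0.30 ± 0.15 (adjusted p = 0.418 and 0.582 in limma), and 2 members had an unadjusted p under 0.05, against 8.51% of all probes.

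The compartments were then followed over all 7 groups as a mean over the genes of each class, each gene centred on its mean over the 43 arrays and represented by its brightest tested probe. The cytosolic mean was 0.03 to 0.16 in GD20 DBP500 litters, median 0.09, against -0.17 to -0.08 in their controls, median -0.10, so these groups did not overlap. In GD20 DBP100 litters it was -0.07 to 0.03, median -0.02, against -0.18 to 0.09 in their controls, median -0.01. At PND5 the medians were 0.01 in controls, -0.04 in DBP100 litters and 0.09 in DBP500 litters, with overlapping ranges. The mitochondrial mean was 0.24 ± 0.01 in GD20 DBP500 litters and 0.22 ± 0.15 in their controls (SD, n = 5 and 6). It was 0.19 ± 0.09 in GD20 DBP100 litters and in their controls alike. At PND5 it was -0.26 ± 0.16 in controls, -0.21 ± 0.16 in DBP100 litters and -0.18 ± 0.08 in DBP500 litters (SD, n = 7 each). The cytosolic minus mitochondrial mean was higher in PND5 controls than in GD20 controls by 0.57 log2 with quantile normalization, by 0.22 with the median shift and by 0.17 in the authors' processed values.

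**Figure D3:**
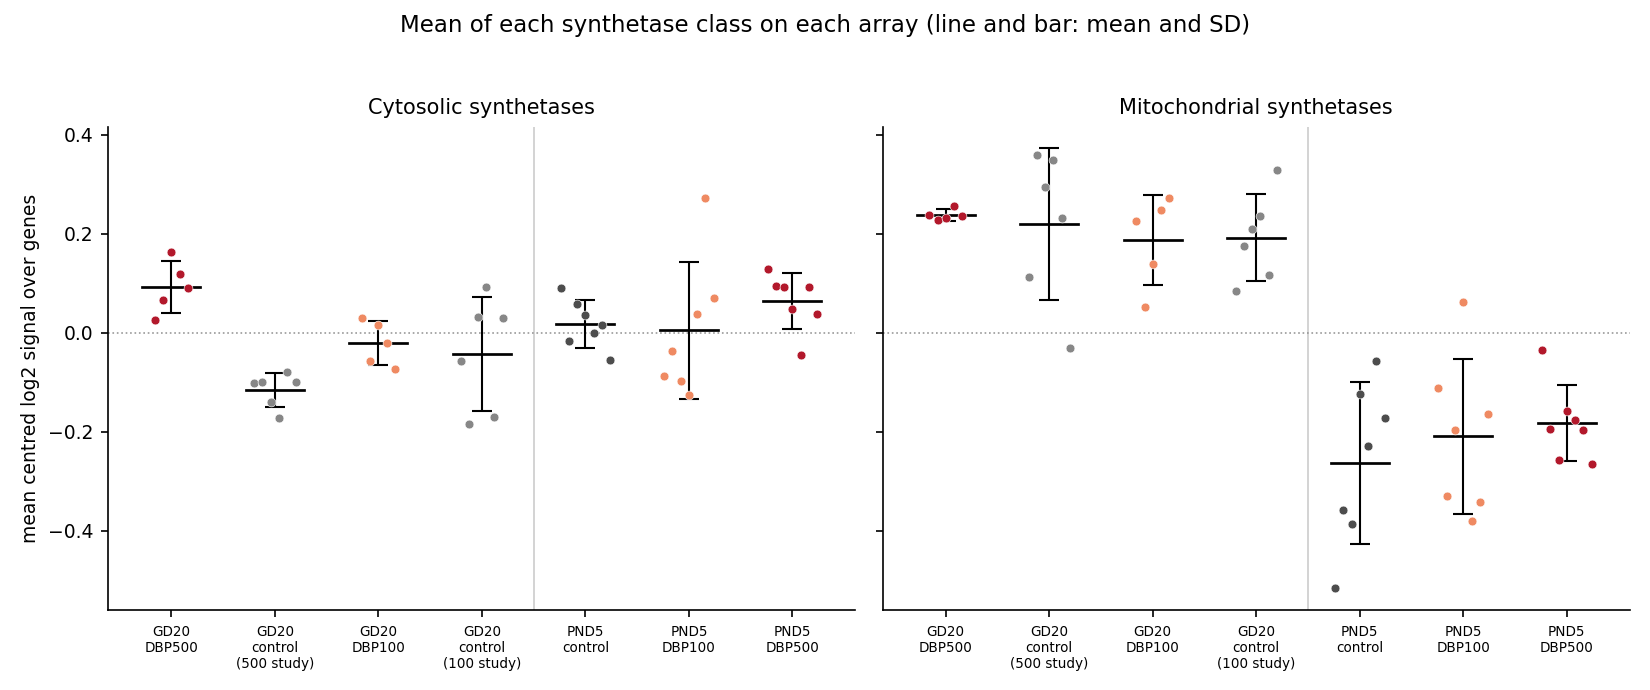
Mean centred log2 signal over the 16 cytosolic genes (left) and the 9 mitochondrial genes (right) on each array, by group, with points for litters and black lines and bars for mean and SD. The cytosolic mean of GD20 DBP500 stands above its controls, while the mitochondrial mean is lower at PND5 than at GD20 in every group.

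Many synthetases differed between the ages, at a share near that of all probes. PND5 controls were compared with the mean of both GD20 control groups, and 20 of 28 member probes passed (71.4%), 9 higher and 11 lower, against 8368 of all probes (61.6%), 26.7% higher and 34.9% lower. Of all probes 42.8% had a difference above 0. The titles name a study only at GD20, and the processed values were normalized separately for the PND5 arrays, so age and array set cannot be told apart. The mitochondrial enzymes were lower at PND5 in 8 of 9 genes, 6 of them passing and none passing as higher, with a median of -0.49 against an all-probe median of -0.09. The 6 include Lars2, detected on 1 of 7 PND5 controls, which met the detection filter mainly through GD20 arrays. The cytosolic enzymes went both ways, with 7 of 16 genes passing as higher, 4 passing as lower and a median of 0.13.

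Vars2 fell by 1.12 ± 0.11 log2, with 6.28 to 7.24, median 6.53, in PND5 controls against 7.47 to 7.83 in the controls of the GD20 DBP500 study and 7.64 to 7.98 in those of the DBP100 study (adjusted p = 3.81e-12 in limma). No PND5 control reached the lowest GD20 control. Kars1, the lysine enzyme of both compartments, fell by 0.97 ± 0.09, with 9.55 to 9.99 in PND5 controls against 10.72 to 11.20 and 10.28 to 10.65 in the same GD20 groups (adjusted p = 7.31e-13). These ranges did not overlap either, nor did those of Eef1e1, as held for 10.2% of all probes. Cars2 fell by 0.70 ± 0.11, the mitochondrial tyrosine enzyme Yars2 by 0.68 ± 0.13 and the serine enzyme Sars2 by 0.61 ± 0.15 (adjusted p = 6.61e-07, 1.82e-05 and 0.000445 in limma), the last with detection on 4 of 7 PND5 and 10 of 12 GD20 controls. Lars2 passed as lower with detection on 1 of 7 PND5 and 6 of 12 GD20 controls, so its size of -0.43 compares signals near background.

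Among the rises, Qars1 was 2.14-fold higher at PND5, with 8.85 to 9.60, median 9.09, in PND5 controls against 6.32 to 8.27 and 8.32 to 8.94 in the GD20 controls of the DBP500 and DBP100 studies (difference 1.10 ± 0.17, adjusted p = 4.8e-07 in limma). Against each GD20 study alone it was 1.58 and 0.62, both passing, so its size depended on the study. Tars1 rose by 0.67 ± 0.16 in probe b, whose signal was near background in the controls of the DBP500 study, and by 0.65 ± 0.08 in probe a, Gars1 by 0.60 ± 0.09, Aimp1 by 0.47 ± 0.12 and Rars1, the arginine enzyme, by 0.45 ± 0.11 (adjusted p = 0.000282, 3.18e-09, 2.34e-07, 0.000839 and 0.000365 in limma). With the median shift 4 of these rises were lost: Tars1 probe a differed by 0.17, Gars1 by 0.03, Rars1 by 0.06 and Aimp1 by -0.09 (adjusted p = 0.308, 0.845, 0.771 and 0.634 in limma). Tars1 probe a was higher in every PND5 control than in every GD20 control, as were 10.8% of all probes. Eef1e1 moved opposite to Aimp1, falling by 0.57 ± 0.09 (adjusted p = 6.03e-07). Against each GD20 control group separately, 15 of 28 member probes passed with the same sign in both, against 42.9% of all probes, and 24 kept the same sign, against 82.4% of all probes.

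**Figure D4:**
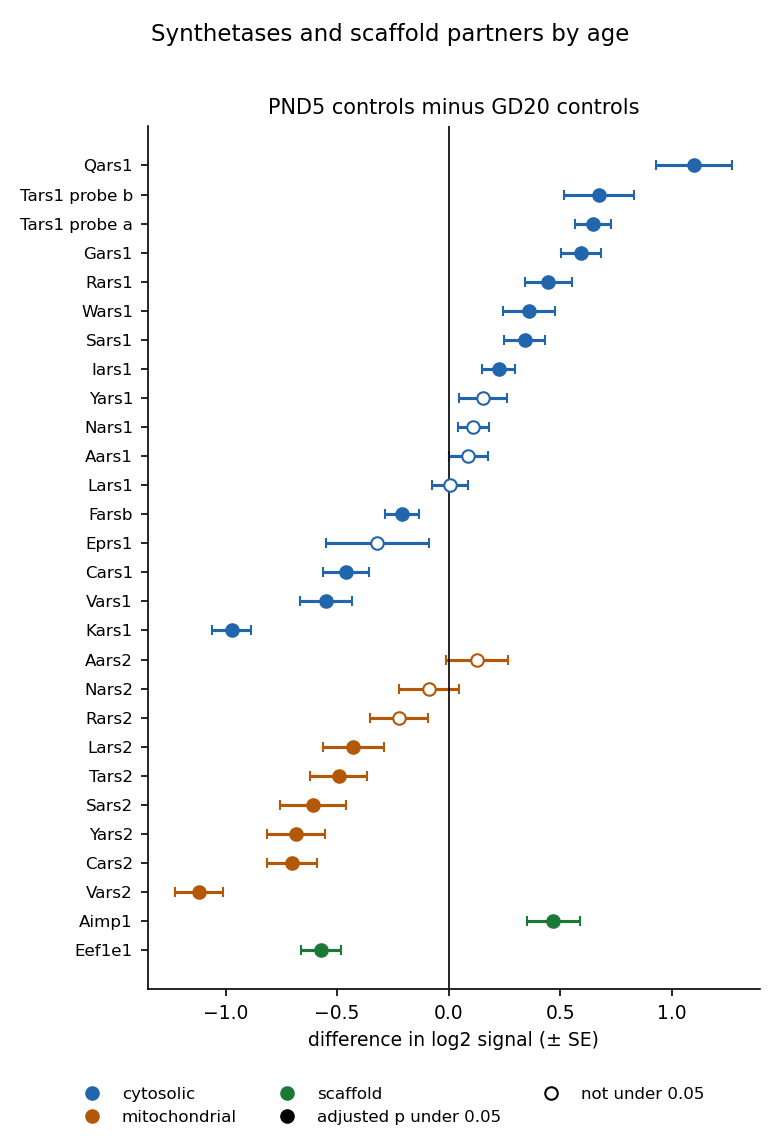
Difference in log2 signal with its SE (horizontal axis) between PND5 controls and GD20 controls for the 28 tested member probes by class, with filled points for an adjusted p under 0.05. Of the mitochondrial probes 8 of 9 lie left of 0, and cytosolic probes lie on both sides.

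These age directions depend in part on how the arrays are scaled. Of the calls over all probes, 43.3% were higher with quantile normalization, 29% when arrays were shifted to a common median and 34.4% in the authors' processed values, and the all-probe median was -0.09, -0.28 and -0.11 in the same order. The 6 mitochondrial calls (Cars2, Lars2, Sars2, Tars2, Vars2 and Yars2) passed as lower under all 5 scalings, and 8 of 9 mitochondrial genes were lower under each. The scalings were not 5 separate checks. The main values, those with no background correction and those with an offset of 50 shared quantile normalization. The processed values were normalized within each study, so they cannot check a difference between the ages. Of the 6, Lars2 did not pass against the controls of the DBP100 study alone (-0.31, adjusted p = 0.106 in limma). Lars2 was detected on 1 of 7 PND5 controls and on 0 of 7 arrays in each exposed PND5 group. It thus met the detection filter mainly through GD20 arrays, which favoured a call as lower at PND5. The sizes of Vars2, Cars2 and Sars2 were smaller in the authors' processed values, with -0.61, -0.46 and -0.23. That of Yars2 was not, with -0.72. The median over all 9 mitochondrial genes was -0.49 with quantile normalization, -0.42 with the median shift and -0.20 in the processed values. Of the cytosolic probes, Qars1 and Tars1 probe b passed as higher and Kars1, Farsb, Vars1 and Cars1 as lower under all 5. Of these, Tars1 probe b and Farsb passed against the controls of the DBP500 study (1.08 and -0.33, adjusted p = 2.61e-06 and 0.00124) but not against those of the DBP100 study (0.26 and -0.09, adjusted p = 0.224 and 0.425 in limma). Of the 17 cytosolic probes, 8 passed as higher and 4 as lower with quantile normalization, 2 and 7 with the median shift, and 6 and 7 in the processed values. The cytosolic median was 0.15 over these probes with quantile normalization, -0.32 with the median shift and -0.10 in the processed values, and Aars1, Iars1, Lars1, Nars1, Sars1, Yars1 and the scaffold gene Aimp1 changed sign. In the last 2 scalings the cytosolic median thus lay near the all-probe median.

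Markers of other cell types also differed between the ages. All 5 skeletal muscle markers passed as higher at PND5 with a median of 4.01 log2, with a mean level of 10.7 to 12.1 in PND5 controls against 5.85 to 8.69 and 5.47 to 9.55 in the GD20 controls of the DBP500 and DBP100 studies. All 4 differentiated epidermis markers passed as higher (median 2.33) and all 4 erythroid markers as lower (median -1.34). Their part in the synthetase differences was not tested. Of the related lists, 18 of 23 amino acid response genes passed between the ages, 7 higher and 11 lower. Of 8 mitochondrial translation genes 4 passed, 2 in each direction with a median of 0.00. Over all probes 61.6% passed in this comparison, 26.7% as higher and 34.9% as lower.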

How the data were processed

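Foreskin RNA was profiled on 43 Illumina RatRef-12 arrays in 7 groups taken from the titles. The authors deposited a non-normalized table that holds, per the file headers, each probe's intensity with its detection p-value (22523 probes), and a table of processed intensity values whose sorted values lay within 0.166% of each other inside each study, so the deposited processed values were normalized within study. The submitters' processing notes name limma. From the raw signals, limma 3.58.1 in R 4.3.3 estimated background from the detection p-values, added an offset of 16, quantile-normalized all 43 arrays and took log2. Probes detected (p under 0.05) on at least 5 arrays were tested, 13577 in all (60.3%), with 1 mean per group, 5.48 prior degrees of freedom, two-sided contrasts and Benjamini-Hochberg adjustment over all tested probes of a comparison. Intervals (95%) used the t distribution. A member passed at an adjusted p under 0.05. The fit was tested on simulated data. The number of arrays limits the precision. Probe names came from the platform annotation, which gave 13793 probes 1 symbol and 8730 none.

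Values by array are given for members passing in an exposure comparison, or the 2 of smallest p where none passed; for age, the 5 largest rises and falls are named. Members and lists were chosen with earlier results of these data known. Same-numbered arrays did not deviate together (correlations from -0.268 to 0.184), so replicate numbers were not treated as pairs. Alternatives were the scaling, background, offset, processed table, detection filter, arrays in the fit, replicate and array-set blocks, variance trend and leaving out each array.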

Additional observations from a re-analysis of the deposited data

Results flagged for a closer look

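In groups of 5 to 7 arrays, a member's highest or lowest array was set apart by Dixon's criterion in 13 of 196 combinations of probe and group (6.63%), while chance alone flags about 1 in 20. Among cytosolic enzymes at GD20, Wars1 stood at 7.931 in DBP500 litter 3, against 7.62 to 7.68 in the other litters of that group. Qars1 stood low at 6.324 in control 6 of the DBP500 study, against 7.61 to 8.27, and Rars1 at 8.252 in control 4 of that study, against 8.65 to 8.88. Tars1 probe a stood high at 9.819 in DBP100 litter 1, against 9.54 to 9.58 in the others, and Kars1 low at 10.276 in control 1 of the DBP100 study, against 10.52 to 10.65.

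At PND5, Aars1 stood low at 10.088 in control 1, against 10.53 to 10.73, and Kars1 at 9.058 in DBP100 litter 2, against 9.55 to 9.89. Aimp1 stood high at 11.887 in control 1, against 10.78 to 11.24. Among mitochondrial enzymes, Yars2 stood high at 9.564 in GD20 DBP500 litter 5, against 9.14 to 9.25, Tars2 low at 6.223 in GD20 DBP100 litter 3, against 6.80 to 6.94, and Vars2 high at 7.984 in control 1 of the DBP100 study, against 7.64 to 7.77. Tars2 stood low at 5.716 in PND5 DBP500 litter 2, against 6.45 to 6.79, and Rars2 low at 7.172 in PND5 DBP100 litter 3, against 7.78 to 8.22. Control 1 of the DBP100 study and control 1 of PND5 each appeared for 2 members and no other array for more than 1. Of 84 differences between doses or ages checked over the members, 0 passed in limma.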

How the results depend on the processing

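The number of members passing in GD20 DBP500 was 2 and changed to 0 with the median shift, 4 in the processed table and 1 with the replicate block, and was 1 to 2 when arrays were left out in turn. In PND5 DBP500 it was 1 and changed to 0 with the median shift, in the processed table, in the fit of only the compared groups and with the replicate block, with adjusted p-values for Cars2 of 0.166, 0.0569, 0.097 and 0.0517 in limma, and was 0 to 1 when arrays were left out. The replicate block left Lars1 called at GD20 and gave Cars1 an adjusted p of 0.0808. It could not be fitted for the comparisons of controls between ages and between the GD20 studies, and in the others it changed no member count besides these. For the DBP500 effect between ages the count was 1 with no background correction and 1 in the processed table. Between the GD20 control groups it was 5, with 17 in the processed table, where studies were normalized separately, and 3 to 6 when arrays were left out, the 3 without control 6 of the DBP500 study. The cytosolic minus mitochondrial score between ages was 0.57, and 0.223 with the median shift, 0.345 with no background correction and 0.169 in the processed table. Aimp1 turned to -0.0935 with the median shift between ages. The causes were not tested. Over all probes, GD20 DBP500 had 41 calls, with 18 under the median shift and 24 under the replicate block. PND5 DBP500 had 498, with 34 under the median shift, 128 in the fit of only its groups and 272 under the block. GD20 DBP100 had 80, with 0 in the fit of only its groups, 44 with no detection filter, 152 in the processed table and 165 under the block. PND5 DBP100 had 11 and the difference in GD20 dose effects 18, both 0 under the median shift and the block. Leaving out 1 array gave 22 to 40 for GD20 DBP500, 190 to 733 for PND5 DBP500, 0 to 464 for GD20 DBP100, 0 to 71 for PND5 DBP100, 0 to 14 between the PND5 doses, 0 to 126 for the GD20 dose difference, and 11 to 97 and 0 to 17 for the DBP500 and DBP100 effects between ages. The GD20 controls had 2991, with 8241 in the processed table. Member counts of 0 for GD20 DBP100, PND5 DBP100, the PND5 doses and the GD20 dose difference stayed 0 under every alternative run.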

Other observations

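Genes linked to tRNA that were not counted as members were also measured. At PND5, all 5 tested tRNA-linked genes were higher in DBP500 litters than in controls and 0 passed, with a median of 0.28 against an all-probe median of 0.02. Of all probes 53.7% were higher. Tars3, a threonine enzyme related to Tars1, differed by 0.28 ± 0.14 in DBP500 litters (adjusted p = 0.262 in limma). In DBP100 litters, against the same controls, all 5 were higher as well, with 0 passing and a median of 0.19, where 50% of all probes were higher. Between PND5 and GD20 controls, all 5 were lower, and Tars3 and Xpot, the exporter of tRNA from the nucleus, passed, Tars3 with -0.61 ± 0.12 (adjusted p = 2.8e-05 in limma). Over all probes 34.9% passed as lower in that comparison.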
